A study of Saccharomyces cerevisiae with 24 samples.

Results

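Yrr1 belongs to the zinc cluster family of fungal transcription factors, which bind DNA through zinc held by cysteines, and it switches on yeast genes for drug export and detoxification. It shares many targets with Pdr1 and Pdr3, the master regulators of pleiotropic drug resistance, and its own gene is one of them. In yeast, intergenic DNA upstream of genes is where transcription factors bind and where nucleosomes are sparse, and neighbouring genes often share 1 such stretch.

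A set of 256 intergenic promoter regions without tRNA genes was taken from the 1711 regions that the authors tabulated in a chromatin immunoprecipitation sequencing (ChIP-seq) study of Yrr1 in Saccharomyces cerevisiae. A region entered the set when it was nuclear, when its midpoint lay over 50000 bp from both chromosome ends, outside every open reading frame and at most 500 bp upstream of the start codon of 1 or 2 protein-coding genes (sacCer3), and when it overlapped no tRNA, small nuclear or nucleolar RNA or rRNA gene. These choices used positions and no measured value, but the tabulated regions themselves may have been defined from the authors' peaks. The set held 81 divergent promoters, which lie between a pair of genes read away from each other with both start codons within 500 bp. It also held 174 promoters called tandem, with 1 gene downstream within that distance. The tandem class did not use the direction of the next gene beyond 500 bp. It thus includes regions between genes read away from each other, such as GCG1 and CHD1. The remaining region, MIN4/ERG6, lies before 2 genes on 1 strand and belonged to neither class. Together the regions stood upstream of 338 genes. Just inside the distance limit were MTR2 at 498 bp, with a mean signal of 33.2, and SUT2 at 496.5 bp with 29.0. Just outside it were YBR053C at 503.5 bp with 32.9 and HXT5 at 507 bp with 26.6.

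Cells of strain S96 lacking their own YRR1 gene (S96 yrr1Δ) had been transformed with a Myc-tagged allele. That allele was the S96 protein carrying the amino acid change I775E (S96-I775E), the protein of strain YJM789, or the S96 protein itself. Each was grown in rich medium (YPD) with 4NQO (4-nitroquinoline-N-oxide, which damages DNA) at 0.25 µg/ml, or in YPD without it, in both cases for 2.5 h. The 6 groups of allele and medium each had 3 anti-Myc ChIP libraries and 1 input library that those 3 share, 18 ChIP and 6 input libraries in all. A difference between groups therefore holds the difference between their inputs too, and both parts cannot be told apart. The design text names triplicate cultures and the growth protocol duplicate ones, so the p-values rest on the variation among libraries and part of it may be technical. A library from untagged cells was not analysed here.

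For each region and library the deposited tables give a signal called the rise, which is the score of ChIP minus input coverage where it is highest in the region, after subtraction of the average score of the background. Read totals are not in these tables, so the depth of a library is unknown. The authors also deposited MACS2 peaks per library, both of the usual kind (ChIP above input) and of the reverse kind (input above ChIP). A region was taken to have a peak in a group when at least 2 of its 3 libraries had one.

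Most of these promoters overlapped the reverse kind of peak when both deposited parameter sets (mn and m2) were pooled. In all, 223 of the 256 (87.1%) then overlapped a reverse peak in some library, 63 (24.6%) a ChIP peak and 33 both. For comparison, reverse peaks lay at 40.2% and ChIP peaks at 72.8% of the 892 coding regions. At the 258 regions on tRNA, small RNA or rRNA genes the shares were 5.43% and 93.8%. Neither kind of peak lay at 3 of the 256 promoters and at 79 of the 1692 nuclear regions. Since the regions may have been defined from these peaks, overlap with some kind of peak may be set by how they were made. The shares therefore describe the tabulated regions, not promoters in general. Divergent and tandem promoters had ChIP peaks at 24.7% of either class and reverse peaks at 91.4% of divergent and 85.1% of tandem promoters. With the mn set alone, which the later counts use unless stated, ChIP peaks lay at 48 promoters (18.8%). By class the mn shares were 21.0% of divergent promoters, 17.8% of tandem promoters and 55.0% of coding regions. The rise was listed in enough libraries for a test (at least 2 in every group) at 152 promoters, or 59.4%, against 82.8% of the 1436 other nuclear regions. The 104 untested promoters enter only the counts of peaks.

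The DNA under the ChIP peaks is shown, to set its matches to the Yrr1 recognition sequence beside the values below, at 5 of the 6 promoters with the most libraries carrying a peak, as 200 bases around the region's strongest point on the upper strand of the reference sequence of build R64 (sacCer3). Capitals mark matches on either strand to the Yrr1 recognition sequence, which was searched as T or A, then CCG, then C or T, then G, then G or T, then A or T at both of the last positions. The windows are chrIV:465307-465506 for SNQ2, chrVII:894365-894564 for SNG1, chrXV:642172-642371 for YRR1, chrXVI:297105-297304 for ISU1 and chrII:544649-544848 for APD1.
YDR010C/SNQ2: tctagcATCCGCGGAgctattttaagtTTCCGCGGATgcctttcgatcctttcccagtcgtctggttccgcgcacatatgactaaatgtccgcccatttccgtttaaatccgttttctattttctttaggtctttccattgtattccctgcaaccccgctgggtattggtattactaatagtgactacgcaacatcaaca
SNG1/YPP1: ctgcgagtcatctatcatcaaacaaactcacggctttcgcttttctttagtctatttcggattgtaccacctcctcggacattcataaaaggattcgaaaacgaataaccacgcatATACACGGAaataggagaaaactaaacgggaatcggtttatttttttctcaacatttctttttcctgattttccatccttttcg
YRR1/DDP1: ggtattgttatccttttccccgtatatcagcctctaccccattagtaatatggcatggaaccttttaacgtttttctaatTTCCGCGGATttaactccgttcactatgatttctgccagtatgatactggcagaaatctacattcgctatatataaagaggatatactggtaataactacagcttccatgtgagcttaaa
ISU1: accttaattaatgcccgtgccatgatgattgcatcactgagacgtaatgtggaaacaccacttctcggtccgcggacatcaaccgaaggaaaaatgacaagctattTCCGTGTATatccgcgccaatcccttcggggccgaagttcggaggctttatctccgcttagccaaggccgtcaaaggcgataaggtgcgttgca
APD1/TBS1: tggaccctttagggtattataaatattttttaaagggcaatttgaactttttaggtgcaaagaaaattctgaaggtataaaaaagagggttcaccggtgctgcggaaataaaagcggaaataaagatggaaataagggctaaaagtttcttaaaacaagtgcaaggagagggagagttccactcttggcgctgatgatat
In YRR1 a pair of overlapping matches, 1 on each strand, lay 15.5 and 16.5 bp before the strongest point, and in SNG1 and ISU1 the single match lay 19.5 and 9.5 bp after it. In SNQ2 the 3 matches lay 68, 69 and 90 bp before it. The APD1 window holds none. The ISU1 window also holds TCCGCGGA, the palindrome of Pdr1 and Pdr3, 28.5 bp before its strongest point.

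SNQ2 encodes the membrane transporter that exports 4NQO, and its promoter (chromosome IV, 464940 to 465905, also upstream of the open reading frame YDR010C) had a ChIP peak in 18 of 18 libraries. The rise was 225, 218 and 235 with S96-I775E in 4NQO and 183, 150 and 165 in YPD. With YJM789 it was 236, 273 and 217 in 4NQO and 197, 201 and 191 in YPD, and with S96 it was 173, 161 and 184 in 4NQO and 184, 166 and 182 in YPD. The 4NQO libraries lay above the YPD libraries without overlap for S96-I775E and YJM789, and among them for S96. MACS2 fold enrichment over the local background gave another order of the alleles. It was 3.803, 3.64 and 3.91 for S96-I775E in 4NQO and 3.62, 3.35 and 3.17 in YPD. With YJM789 it was 3.17, 3.32 and 2.81 in 4NQO and 3.68, 3.75 and 3.75 in YPD, so the fold was lower in 4NQO where the rise was higher. The S96 libraries had folds of 2.57, 2.56 and 2.82 in 4NQO and 2.86, 2.47 and 2.86 in YPD. In both media every S96-I775E library lay above every S96 library on that scale, also in YPD, where the rise of the mutant lay among or below the S96 values. CisGenome, the authors' second caller, listed a peak there in all 6 groups, with a log2 fold change in the authors' deposited table between 1.64 and 2.41.

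SNG1, a gene for resistance to nitrosoguanidine, and YPP1, a gene for endocytic transport, share the region on chromosome VII from 893849 to 894948, with a ChIP peak in 16 of 18 libraries. The rise was 55.1, 36.7 and 59.5 with S96-I775E in 4NQO, 136, 140 and 123 with YJM789 in 4NQO, and 56.7, 84.2 and 74.5 with S96 in 4NQO. In YPD it was 58.2, 60.9 and 43.6 with S96-I775E, 81.0, 68.5 and 63.3 with YJM789, and 117, 117 and 88.5 with S96. The group at the top was thus YJM789 in 4NQO and S96 in YPD, and no library of either overlapped the S96-I775E libraries of its medium.

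YRR1 and DDP1, a gene for a polyphosphate phosphohydrolase, share the region on chromosome XV from 642006 to 642721, with a ChIP peak in 16 of 18 libraries. The rise was 36.7, 43.5 and 42.5 with S96-I775E in 4NQO and 18.8, 34.6 and 48.4 in YPD. It was 48.3, 27.8 and 44.0 with YJM789 in 4NQO and 26.6, 43.4 and 76.4 in YPD, and 128, 49.6 and 55.9 with S96 in 4NQO and 143, 145 and 136 in YPD. All 3 libraries of S96 in YPD lay above the 15 others in rise. The MACS2 folds did not follow that order, with 1.73, 1.55 and 1.80 for S96-I775E in YPD and 1.67, 1.57 and 1.42 for S96 in YPD, which overlapped. With YJM789 in YPD 1 library had a peak, at a fold of 1.46. In 4NQO the folds were 1.98, 2.11 and 2.21 with S96-I775E, 1.83, 1.77 and 1.77 with YJM789 and 2.12, 1.97 and 2.09 with S96. The introduced allele and the genomic promoter cannot be told apart at this region.

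APD1, a gene for a thioredoxin-like protein with an iron-sulfur cluster, and TBS1, a zinc cluster gene, share the region on chromosome II from 544421 to 545157, with a ChIP peak in 10 libraries. The rise was 33.3, 51.3 and 58.0 with S96-I775E in 4NQO and 53.6, 26.5 and 41.0 in YPD. It was 35.0, 30.1 and 30.4 with YJM789 in 4NQO and 39.2, 64.3 and 53.8 in YPD, and 61.7, 23.1 and 64.4 with S96 in 4NQO and 90.7, 80.9 and 68.8 in YPD. The 3 S96 libraries in YPD were the highest 3 of the 18, and none of the 3 YJM789 libraries in 4NQO had a peak. No difference passed at this promoter in any of 11 comparisons, the nearest being S96-I775E against S96 in YPD at −1.02 ± 0.33 (SE) on the log2 scale (limma, adjusted p = 0.0558).

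ISU1, which encodes a scaffold protein for mitochondrial iron-sulfur cluster assembly, had a ChIP peak in 5 libraries at chromosome XVI, 296884 to 297456. Its rise was 28.7, 24.4 and 102 with S96-I775E in 4NQO and 33.2, 55.9 and 15.8 in YPD. It was 84.6, 97.8 and 37.5 with YJM789 in 4NQO and 52.6, 33.2 and 45.7 in YPD, and 29.0, 30.8 and 25.9 with S96 in 4NQO and 40.7, 32.1 and 41.8 in YPD. With S96-I775E and with YJM789 in 4NQO, 1 library stood far from the other two. No comparison passed. RRT15, an uncharacterised gene, had ChIP peaks in 12 libraries and reverse peaks in the other 6. All of its sequence (in words of 31 bases) occurs elsewhere, within rRNA genes, the nearest of them 448 bp away, so reads there cannot be assigned to it and no sequence or difference is given. The same full repetition held for YLR035C-A and YAR009C among the 256 promoters.

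**Figure D1:**
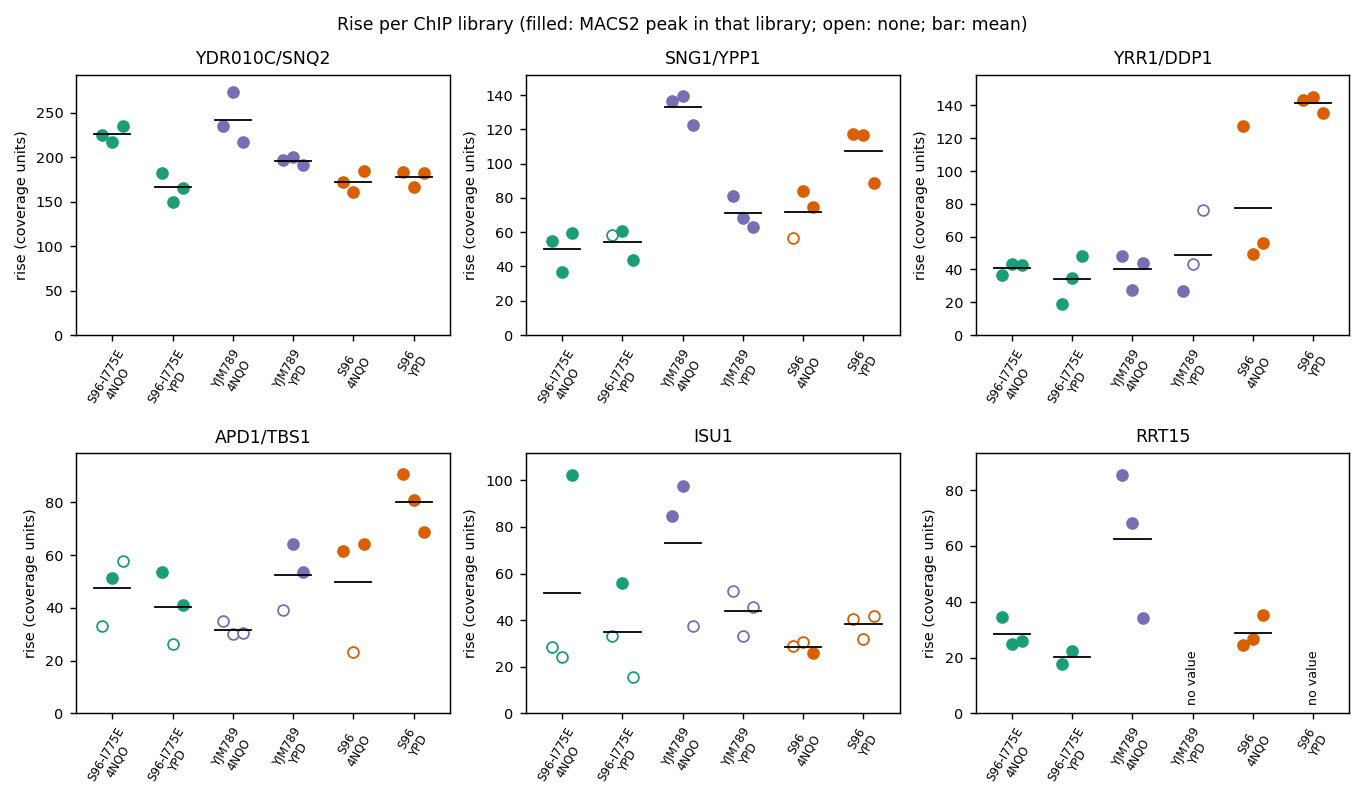
Rise (vertical axis, coverage units) of 6 promoters in each of 18 ChIP libraries by allele and medium (horizontal axis), filled where the library has a MACS2 ChIP peak, with a bar at the group mean. SNQ2 is filled in 18 libraries, the SNG1 points of YJM789 in 4NQO lie between 123 and 140, and the YRR1 points of S96 in YPD lie between 136 and 145.

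Beyond these promoters, recurrent ChIP peaks were few and came almost wholly from 1 group. The number of promoters with a recurrent peak, present in 2 or 3 of the 3 libraries, was 4 (1.56%) for S96-I775E in 4NQO, 5 (1.95%) for S96-I775E in YPD, 24 (9.38%) for YJM789 in 4NQO, 3 (1.17%) for YJM789 in YPD and 5 (1.95%) for S96 in either medium. The same shares over all 1692 nuclear regions were 1.83%, 2.6%, 15.5%, 0.236%, 3.49% and 4.67%, in the order S96-I775E, YJM789, S96 and within each allele 4NQO before YPD. Promoters thus lay below the nuclear share in every group except YJM789 in YPD, where the 3 promoters were SNQ2, SNG1 and APD1. For YJM789 in 4NQO, 33 promoters had a peak in replicate 1, 29 in replicate 2 and 4 in replicate 3. Without replicate 1, and without replicate 2, the number was 4.

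Across the 6 groups 26 promoters had a recurrent ChIP peak, 12 divergent and 14 tandem, and 20 of them had it with YJM789 in 4NQO alone. The divergent ones were SOD1/ADO1 (superoxide dismutase and adenosine kinase), TPS1/MEO1 (trehalose synthesis), MOG1/OPI3 (nuclear import and phospholipid synthesis), MLC1/RMD9 (myosin light chain and mitochondrial gene expression), SRB2/NCP1 (Mediator and cytochrome P450 reductase), ERV46/PTA1 (vesicle transport and 3′ end processing), COX23/DMA1 (cytochrome oxidase assembly and a ubiquitin ligase) and APS2/PTK2 (an adaptor subunit and a kinase). The tandem ones were ADE3, CCT6, COX5A, GCG1, ISU1, IXR1, PIM1, PMT2, SPT8, URH1, YER137C and YJR112W-A. Their mean fold enrichment in the libraries with a peak lay between 1.55 (PMT2) and 2.14 (SPT8), against 3.23 for SNQ2. SER3, a serine synthesis gene, had its recurrent peak with S96 in YPD alone, at a mean fold of 1.74. At a fold of at least 2, YJM789 in 4NQO had 4 promoters.

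Divergent promoters, as defined above, had recurrent ChIP peaks at a higher share than tandem promoters in all 6 groups. The numbers were 3 of 81 and 1 of 174 for S96-I775E in 4NQO, 4 and 1 for S96-I775E in YPD, 11 and 13 for YJM789 in 4NQO, and 3 and 0 for YJM789 in YPD. For S96 they were 4 and 1 in either medium. Outside YJM789 in 4NQO the divergent ones were SNQ2, SNG1, YRR1 and APD1 in some combination. The divergent counts of those 5 groups thus repeat the same 4 promoters. The 1 tandem promoter was RRT15, where reads cannot be assigned, with S96-I775E in either medium and with S96 in 4NQO. With S96 in YPD it was SER3. The difference between classes was not tested. The class of those 4 divergent promoters also rests on the distance limit. The YDR010C/SNQ2 region was divergent through the start codon of SNQ2 itself, 496.5 bp away, while that of YDR010C lay 39.5 bp away. By its strongest point it was tandem, as a promoter of YDR010C and not of SNQ2, where the others stayed divergent. With a promoter length of 250 bp it was again tandem for YDR010C alone. At that length APD1/TBS1 was tandem too, and SNG1 and YRR1 belonged to neither class.

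Reverse peaks, where input exceeded ChIP, were most frequent in other groups. They recurred at 4 promoters with S96-I775E in 4NQO, 4 with S96-I775E in YPD, 5 with YJM789 in 4NQO, 29 with YJM789 in YPD, 13 with S96 in 4NQO and 82 with S96 in YPD. Over all nuclear regions the shares were 1.18%, 1.12%, 1.3%, 7.03%, 2.48% and 21.6% in the same order. For S96 in YPD the promoters stood at 32.0%, and 64 of the 108 promoters with a recurrent reverse peak had it in that group alone. Divergent and tandem promoters had it there at 33.3% and 31.03%. Empty entries of the rise made up between 8.46% and 9.38% of the promoters with S96-I775E in either medium and with YJM789 in 4NQO. They made up 19.0 ± 3.0% with YJM789 in YPD, 14.2 ± 2.3% with S96 in 4NQO and 29.7 ± 2.4% with S96 in YPD (SD, n = 3 libraries). The median background that the rise subtracts was −6.09 ± 0.97 over the promoters with S96-I775E in YPD, −16.0 ± 3.1 with YJM789 in YPD and −18.1 ± 2.3 with S96 in YPD (SD, n = 3).

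**Figure D2:**
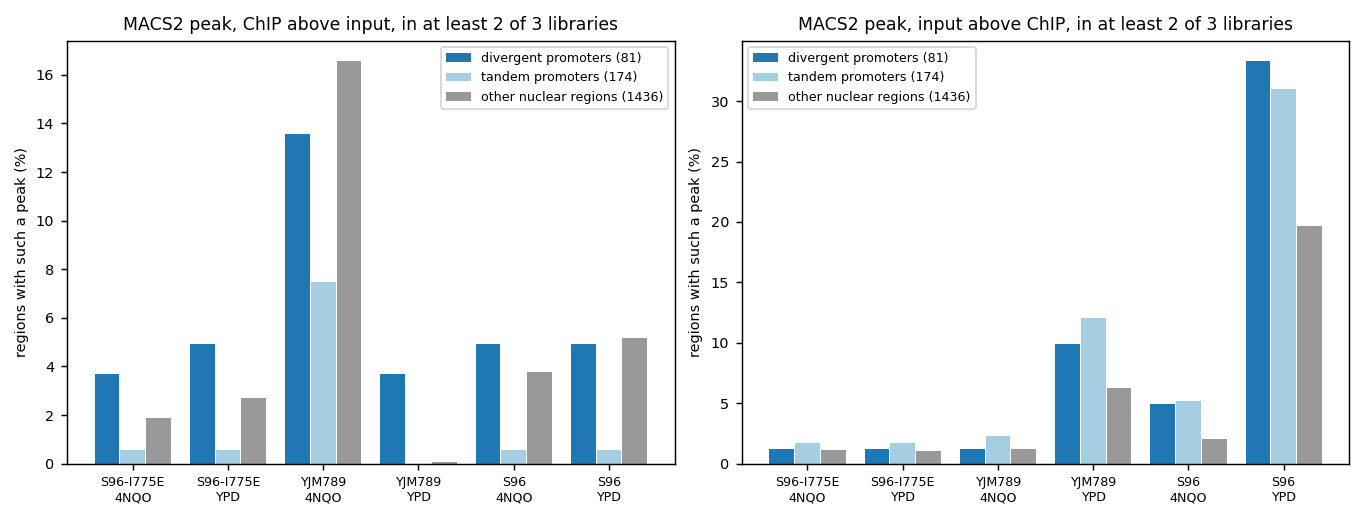
Share of regions (vertical axis, %) with a MACS2 peak in at least 2 of 3 libraries by group (horizontal axis), for divergent promoters, tandem promoters and other nuclear regions, with ChIP above input on the left and input above ChIP on the right. ChIP peaks were most frequent with YJM789 in 4NQO, at 13.6% of divergent and 7.47% of tandem promoters, and reverse peaks with S96 in YPD, at 33.3% and 31.03%.

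The level of the rise was compared between the classes of promoter. For each library the median of log2(rise + 1) over tandem promoters was subtracted from that over divergent promoters. The mean difference was 0.08 ± 0.03 for S96-I775E in 4NQO, and 0.12 ± 0.15 for S96-I775E in YPD. With YJM789 it was 0.10 ± 0.03 in 4NQO and 0.05 ± 0.11 in YPD. With S96 it was 0.04 ± 0.08 in 4NQO and 0.06 ± 0.09 in YPD (SD, n = 3 libraries in every group). Divergent promoters were the higher class in 13 of 18 libraries, and in 10 of 18 by the reverse rise, input minus ChIP. The difference between classes was compared between groups in 9 pairs, where the exact two-sided permutation p was at least 0.3 and adjusted p at least 0.9 (the smallest p that 3 against 3 libraries allow is 0.1). With a promoter length of 250 bp the difference turned to −0.28 for S96-I775E and −0.22 for YJM789 in 4NQO. The strongest point of a region lay in a promoter position by the same rule for 133 of the 256 promoters, 50.6% of the divergent and 52.9% of the tandem ones and lay elsewhere for the rest.

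**Figure D3:**
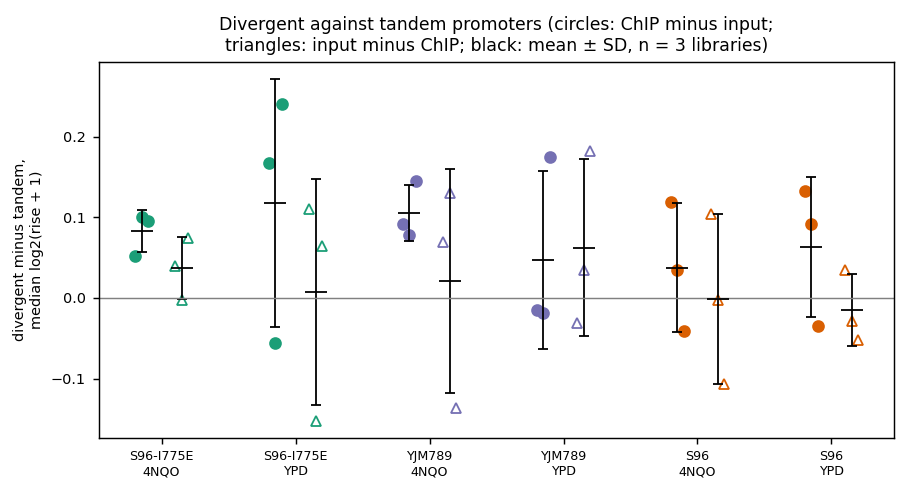
Divergent minus tandem promoters in median log2(rise + 1) (vertical axis) per library and group (horizontal axis), from the ChIP minus input table (circles) and the input minus ChIP table (triangles), with mean ± SD of 3 libraries in black. The circles lie between −0.06 and 0.24 and above 0 in 13 of 18 libraries.

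Differences between groups were tested with limma on log2(rise + 1) over all 1350 regions with enough values, and a promoter was called when its adjusted p was below 0.05. In the 9 comparisons of 2 groups 34 calls fell on 22 promoters, 10 divergent and 12 tandem. In the group with the higher rise, 12 of the 34 calls had a recurrent ChIP peak, 7 a recurrent reverse peak and 15 neither. These are calls rather than promoters, and the 12 fell on SNQ2, SNG1, YRR1, TPS1/MEO1 and SPT8 alone. The same shares over the calls of all regions were not counted. Over all 1350 regions the median difference lay between −0.24 (S96-I775E against S96 in YPD) and 0.25 (4NQO against YPD with YJM789), and differences below are given without subtracting it.

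The amino acid change I775E in YPD gave the most calls at promoters, all of them lower in the mutant. Of the 152 tested promoters 0 were higher and 10 lower with S96-I775E than with S96 (6.58% called, against 6.81% of all regions, of which 1.85% were higher and 4.96% lower). Of the drug resistance promoters, YRR1 was lower in rise, at −2.12 ± 0.35 (adjusted p = 0.000318), while the MACS2 folds of both groups overlapped there. SNG1 was lower in rise, at −0.98 ± 0.21 (adjusted p = 0.00503), and its MACS2 folds in the libraries with a peak overlapped as well. SNQ2 did not pass, at −0.10 ± 0.09 (adjusted p = 0.536). With library medians set equal 3 were higher and 3 lower, so the one-sided direction did not hold under that scaling, and with empty values as 0 the split was 18 and 9.

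CHD1, which encodes a chromatin remodeller that spaces nucleosomes, had the next largest difference (chromosome V, 504844 to 505619). Its rise was 27.01, 19.99 and 16.8 with S96-I775E in YPD and 76.3, 80.7 and 66.5 with S96 in YPD, a difference of −1.78 ± 0.31 (adjusted p = 0.00051). All 3 S96 libraries lay above all 3 mutant libraries. MACS2 listed neither a ChIP nor a reverse peak in any of the 18 libraries, and CisGenome listed a peak with S96 in YPD at a log2 fold of 0.98 in the authors' deposited table. The reverse rise, input minus ChIP, was also highest with S96 in YPD, at 51.0 ± 16.2 (SD). It was 19.5 ± 2.3 with S96-I775E in YPD and 21.0 ± 0.4 with YJM789 in YPD. Why both signals were high with S96 in YPD was not tested. CHD1 and SNG1 kept their calls in this comparison under each alternative tried. With 1 library left out at a time the count lay between 4 and 7, and was 4 without S96 replicate 3 or without S96-I775E replicate 2.

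PRE7 and COX5A were among the lower promoters whose higher group carried reverse peaks. PRE7, a proteasome subunit gene (chromosome II, 140422 to 141225), had 29.5, 28.0 and 19.5 with S96-I775E and 62.3 and 60.6 in the 2 S96 libraries with a value, at −1.25 ± 0.31 (adjusted p = 0.0148). All 3 S96 libraries had a reverse peak there, and with the empty library as 0 the difference turned to 0.74. COX5A, a subunit gene of cytochrome c oxidase (chromosome XIV, 531058 to 532167), had 18.4, 22.7 and 18.4 with S96-I775E and 49.2, 30.7 and 53.6 with S96, at −1.10 ± 0.32 (adjusted p = 0.0378). Reverse peaks stood in at least 2 of 3 S96 libraries at HST3/AHC1 (−1.03), PIB2/STT3 (−0.999) and UBC7/MAC1 (−0.98) as well. HST3 and AHC1 encode a histone deacetylase and a subunit of a histone acetyltransferase complex, PIB2 and STT3 a vacuolar signalling protein and a glycosylation enzyme, and UBC7 and MAC1 a ubiquitin-conjugating enzyme and a copper-sensing regulator. TMA20, a gene for a ribosome-associated protein, was lower at −1.18 with neither kind of peak. Whether the reverse peaks of S96 in YPD bear on these differences was not tested.

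**Figure D4:**
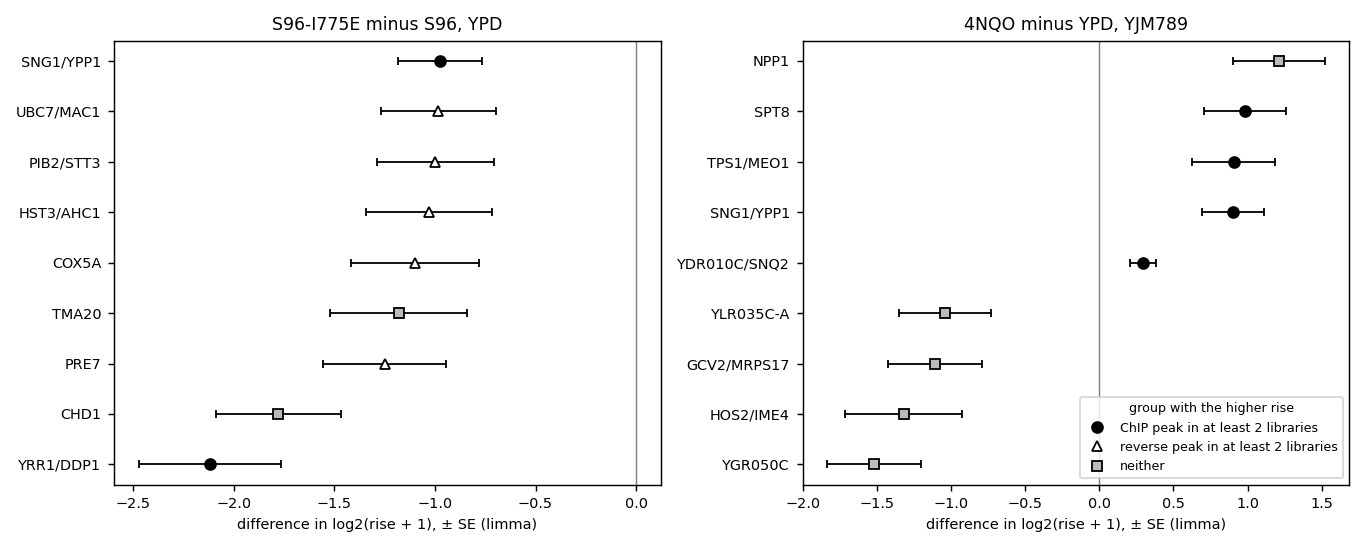
Difference in log2(rise + 1) (horizontal axis, ± SE) at named called promoters (vertical axis) for S96-I775E minus S96 in YPD, 9 of 10 called, and for 4NQO minus YPD with YJM789, all 9 called. In the left panel 2 circles mark recurrent ChIP peaks in the higher group and 5 open triangles recurrent reverse peaks, with values between −2.12 and −0.98. In the right panel the 5 positive values run from 0.29 to 1.21.

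In 4NQO the same pair of alleles differed at 2 of the 152 promoters, both higher with S96-I775E (1.32% called, against 1.85% of all regions, of which 1.26% were higher and 0.593% lower). SNQ2 was higher by 0.39 ± 0.09 (adjusted p = 0.013). GAT1, which encodes a GATA-type activator of nitrogen catabolism genes (chromosome VI, 95403 to 96008), had 71.0, 43.7 and 44.0 with S96-I775E in 4NQO and 14.5, 20.2 and 15.01 with S96 in 4NQO, a difference of 1.59 ± 0.38 (adjusted p = 0.0215). The groups did not overlap, and none of these 6 libraries had a peak at GAT1. Without S96-I775E replicate 1 neither passed (GAT1 1.37, adjusted p = 0.148, and SNQ2 0.39, adjusted p = 0.0597), and without S96 replicate 1, 2 or 3 or S96-I775E replicate 3, 1 promoter passed.

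Set against YJM789, S96-I775E differed at 1 promoter in YPD and at 4 in 4NQO (0.658% and 2.63% of those tested). Of all regions 2.15% were called in YPD (1.48% higher and 0.667% lower) and 3.85% in 4NQO (0.667% higher and 3.19% lower). In YPD the shared promoter of GCV2, a glycine decarboxylase subunit gene, and MRPS17, a mitochondrial ribosomal protein gene (chromosome XIII, 636997 to 637749), had 17.4, 16.0 and 31.4 with S96-I775E and 69.0, 48.1 and 48.5 with YJM789, at −1.36 ± 0.32 (adjusted p = 0.0202). In 4NQO SNG1 was lower, at −1.41 ± 0.21 (adjusted p = 0.000192), which kept its call under each alternative tried. ECM15 had 18.4, 19.1 and 21.4 with S96-I775E and 39.4, 59.9 and 48.9 with YJM789 (−1.27 ± 0.30, adjusted p = 0.0185). NPP1, a nucleotide pyrophosphatase gene, was lower, at −1.14, and SHE10 was higher by 1.18, with 66.5, 32.9 and 55.2 in S96-I775E and 27.6, 22.6 and 15.5 in YJM789. Of these, SNG1 had ChIP peaks and the others had none. GCV2/MRPS17 lost its call without YJM789 replicate 1 or 2 or S96-I775E replicate 1 or 2 (adjusted p up to 0.103). In 4NQO SNG1 alone passed without YJM789 replicate 2 or S96-I775E replicate 1.

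The natural alleles differed at few promoters. In YPD 0 were higher and 2 lower with YJM789 than with S96 (1.32% called, against 2.07% of all regions, of which 0.519% were higher and 1.56% lower), YRR1 at −1.64 ± 0.35 (adjusted p = 0.0113) and CHD1 at −1.41 ± 0.31 (adjusted p = 0.0132). CHD1 had 29.3, 24.0 and 29.0 with YJM789, all below the S96 libraries given above. Without S96 replicate 2 both calls were lost (adjusted p = 0.064 for YRR1 and 0.0669 for CHD1), and without YJM789 replicate 1 as well. In 4NQO 2 were higher and 0 lower (1.32%, against 3.41% of all regions, of which 3.04% were higher and 0.37% lower), SNG1 by 0.90 ± 0.21 (adjusted p = 0.0131) and SNQ2 by 0.48 ± 0.09 (adjusted p = 0.00109), both with ChIP peaks in 3 of 3 YJM789 libraries. SNG1 lost its call without YJM789 replicate 1 or 2 or S96 replicate 1 (adjusted p up to 0.077), and without YJM789 replicate 3, the library with few peaks, 5 promoters passed.

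4NQO changed the rise at 9 promoters with the YJM789 allele, 5 higher and 4 lower than in YPD (5.92% called, against 6.81% of all regions, of which 6.15% were higher and 0.667% lower). SNG1 rose by 0.90 ± 0.21 (adjusted p = 0.00757) and SNQ2 by 0.29 ± 0.09 (adjusted p = 0.0441). NPP1 (chromosome III, 166259 to 166792) had 45.8, 53.5 and 38.7 in 4NQO and 17.6, 19.9 and 19.8 in YPD, the largest increase at 1.21 ± 0.31 (adjusted p = 0.0157), without a ChIP peak in any library. SPT8, a subunit gene of the SAGA coactivator, had 78.6, 84.8 and 44.5 in 4NQO and 30.6, 24.7 and 48.3 in YPD (0.99 ± 0.28, adjusted p = 0.0308), so replicate 3 in 4NQO lay within the YPD values. TPS1/MEO1, upstream of a trehalose synthesis gene, rose by 0.90 ± 0.28 (adjusted p = 0.048).

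Among the 4 lower promoters, GCV2/MRPS17 had 21.9, 28.3 and 24.1 with YJM789 in 4NQO and 69.0, 48.1 and 48.5 in YPD (−1.11 ± 0.32, adjusted p = 0.0353). HOS2/IME4, shared by a histone deacetylase gene and a messenger RNA methyltransferase gene, had 13.4, 15.7 and 18.7 in 4NQO and 37.9 and 44.3 in the 2 YPD libraries with a value, and −1.32 turned to 0.48 with the empty library as 0. YGR050C fell by 1.52 on the log2 scale. YLR035C-A, a retrotransposon gene, fell by 1.04, and its sequence occurs elsewhere in full. With library medians set equal 0 were higher and 4 lower, so the 5 increases, SNG1 (0.68, adjusted p = 0.0583) included, did not pass under that scaling. In a fit of these 2 groups alone 3 promoters were called. With 1 library left out the count lay between 2 and 7, and was 2 without YPD replicate 1 or 4NQO replicate 2. HOS2/IME4 could not be tested without YPD replicate 1 or 2.

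With the S96-I775E allele 4NQO changed 2 promoters (1.32%, against 2.59% of all regions, of which 1.93% were higher and 0.667% lower). SNQ2 was higher by 0.45 ± 0.09 (adjusted p = 0.00651), and PYP1/YNL011C, upstream of a polyol phosphatase gene, was lower, at −1.23 ± 0.31 (adjusted p = 0.0273), with 25.6, 20.3 and 21.8 in 4NQO and 45.0, 54.7 and 63.7 in YPD. Without YPD replicate 2 neither passed (SNQ2 0.38, adjusted p = 0.0579). With the S96 allele 0 promoters were higher and 2 lower in 4NQO (1.32%, against 2.59% of all regions, of which 1.41% were higher and 1.19% lower). They were GCV2/MRPS17, with 20.7, 17.9 and 16.2 in 4NQO and 43.4, 40.0 and 40.6 in YPD (−1.14 ± 0.32, adjusted p = 0.0499), and PRE7 at −1.13 ± 0.31 (adjusted p = 0.0433). Both had reverse peaks in 3 of 3 S96 libraries in YPD, and neither passed with library medians set equal, nor without any 1 of the 3 libraries in 4NQO. GCV2/MRPS17 also lost its call without any 1 of the 3 libraries in YPD, and PRE7 could not be tested without YPD replicate 2 or 3. With empty values as 0 the count was 21 higher and 5 lower.

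The response to 4NQO was then compared between alleles as a difference of differences, which shares the S96 libraries between both comparisons. The response of S96-I775E exceeded that of S96 at 7 promoters and fell short of it at 0 (4.61% called, against 2.59% of all regions, of which 1.93% were higher and 0.667% lower). The response of YJM789 exceeded that of S96 at 2 and fell short at 0 (1.32%, against 3.93% of all regions, of which 3.56% were higher and 0.37% lower). SNG1 is an example with ChIP peaks in every group. 4NQO minus YPD there was 0.90 with YJM789 and −0.58 ± 0.21 (adjusted p = 0.116) with S96, so that the responses differed by 1.48 ± 0.30 (adjusted p = 0.0074). At SNQ2 it was 0.45 with S96-I775E and −0.04 ± 0.09 (adjusted p = 0.841) with S96, and these differed by 0.49 ± 0.12 (adjusted p = 0.0377). TPS1/MEO1 (chromosome II, 489796 to 491146) had 42.3, 47.9 and 50.2 with YJM789 in 4NQO and 25.3, 23.5 and 24.6 in YPD, and 31.2, 23.0 and 24.9 with S96 in 4NQO and 34.9, 43.6 and 52.4 in YPD. Its difference of responses was 1.60 ± 0.39 (adjusted p = 0.0228), which was 1.46 (adjusted p = 0.0679) without S96 replicate 3 in YPD. Neither SNG1 nor TPS1/MEO1 passed with library medians set equal (adjusted p = 0.0559 and 0.109).

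For the mutant, GAT1 (2.23), PRE7 (1.90), CHD1 (1.89), GCV2/MRPS17 (1.74), YJR112W-A (1.62) and APS2/PTK2 (1.40) had the largest differences of responses. CHD1 had 51.3, 33.0 and 40.0 with S96-I775E in 4NQO, above its YPD values, and 53.5, 46.2 and 21.6 with S96 in 4NQO, below its own. At each of the 6 the S96 libraries in 4NQO lay below the S96 libraries in YPD without overlap. That order is part of the difference by which these promoters were picked, so it is no separate observation. The like share over all regions was not counted. Reverse peaks recurred with S96 in YPD at GAT1, PRE7, GCV2/MRPS17 and YJR112W-A but not at CHD1 or APS2/PTK2. Their part in the result was not tested. The count of 7 was 1 without S96 replicate 2 in YPD (SNQ2) or replicate 3 in YPD (CHD1), where GAT1 and PRE7 could not be tested, and was 2 with library medians set equal (PRE7 and CHD1).

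**Figure D5:**
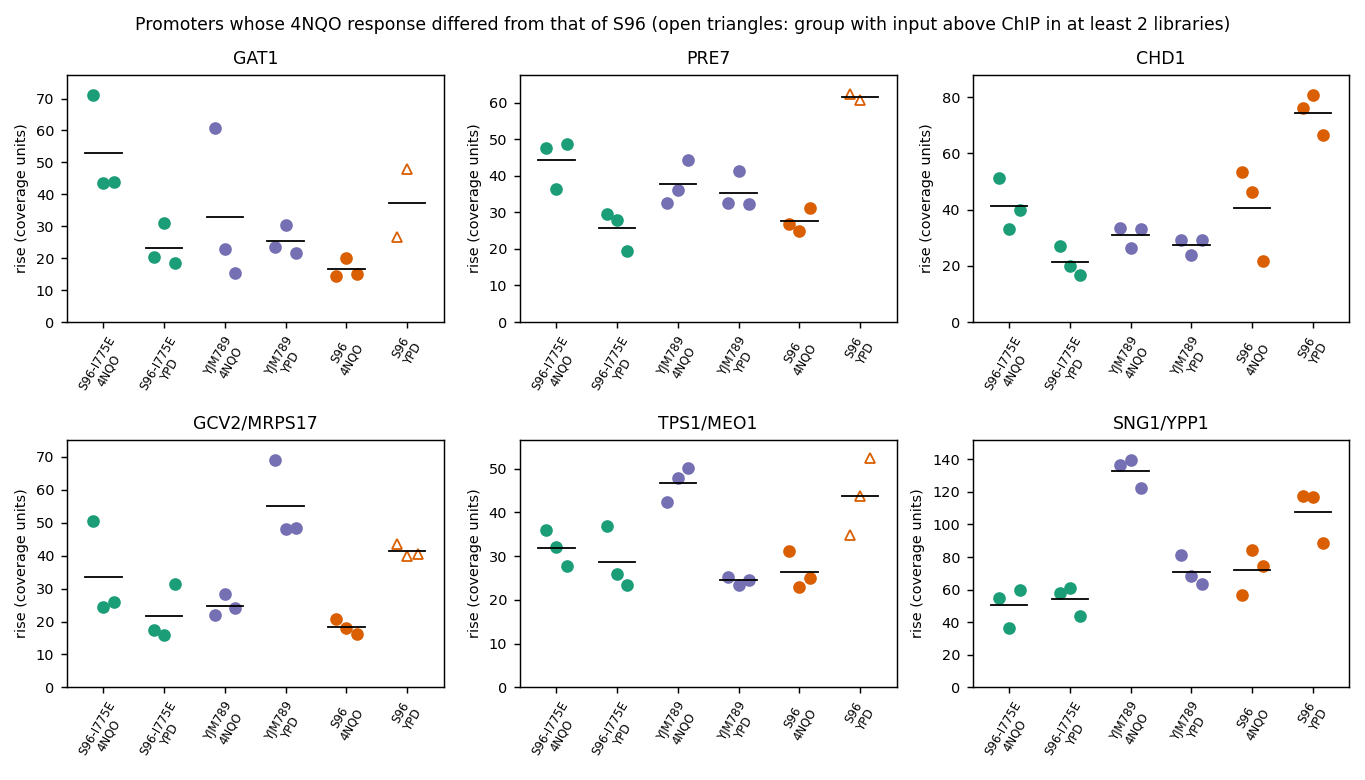
Rise (vertical axis, coverage units) per library at 6 promoters with a called difference of responses, by group (horizontal axis), with group means as bars and open triangles for groups with a recurrent reverse peak. With S96 the 4NQO means lie below the YPD means in all 6 panels, which is part of the difference that these promoters were called on. At SNG1 the YJM789 libraries lie between 123 and 140 in 4NQO and between 63.3 and 81.0 in YPD.

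Promoters were also counted by gene lists. Of 37 drug resistance genes found in the annotation, 5 had a promoter in the set (APD1, SNQ2, SNG1, YRR1 and PDR1), all of them divergent, and 4 had a recurrent ChIP peak. The fifth, ERG4/PDR1, upstream of a sterol reductase gene and of the master regulator, had no ChIP peak, 7 libraries with a reverse peak and 11 libraries with a rise. Of the 4 tested drug resistance promoters, 0 rose and 2 fell with S96-I775E against S96 in YPD (median −0.998, against −0.24 over all regions), and 2 rose and 0 fell with 4NQO against YPD in YJM789 (median 0.05, against 0.25).

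Cytosolic ribosomal protein genes, whose promoters are among the most active in growing yeast, had 23 regions in the set. None of them had a recurrent ChIP peak, and 4 were tested without a call. A recurrent reverse peak was found at 10 of the 23 (43.5%), against 108 of all 256 promoters (42.2%), and with S96 in YPD at 9 (39.1%), against 82 of 256 (32.0%), so neither share was read as particular to these genes. A list of 57 transcription factor and chromatin genes found in the annotation had 4 promoters in the set (UME6, CHD1, GAT1 and SOK2). In the comparisons of 2 groups CHD1 was lower in 2 and GAT1 higher in 1. The list is not complete, so this is no count for all such genes. Other called promoters of regulator or chromatin genes lie outside it, among them YRR1, HST3/AHC1, UBC7/MAC1, SPT8 and HOS2/IME4. Of 3 general stress promoters, 2 of them tested, TPS1/MEO1 was the one called. The lists for glycolysis, oxidative stress, DNA damage and the cell wall had 4, 4, 2 and 3 promoters. Of these only 1, 2, 1 and 1 were tested, with no call, and the rest could not be called. Of 2 respiratory promoters COX5A was called.

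The highest levels were not all at ChIP peaks. By the mean over groups with a value, SNQ2 (197), SNG1 (81.3) and YRR1 (63.8) led the divergent promoters, followed by RPS1B/TEM1 (53.3) and GYP8/STE2 (52.3). RPS24B (59.3), TAT2 (58.6), MIT1 (58.4), STE4 (53.1) and OYE2 (52.1) led the tandem ones. RPS1B and RPS24B encode ribosomal proteins, STE2 and STE4 the alpha factor receptor and a G protein subunit of the mating pathway, TAT2 a tryptophan permease, MIT1 a regulator of filamentous growth and OYE2 an NADPH oxidoreductase. None of these 7 had a recurrent ChIP peak, and TAT2 had a ChIP peak in 1 library. Reverse peaks stood in 9 libraries at GYP8/STE2, 8 at TAT2, 7 at MIT1, 4 each at RPS24B and OYE2 and 3 at STE4, and none at RPS1B/TEM1.

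Recognition sequences were counted in 300 bases around each midpoint on both strands. The Yrr1 sequence was found at 14 of 256 promoters (5.47%), at 8 of 81 divergent (9.88%) and 6 of 174 tandem ones (3.45%). It was present in 2.86% of other nuclear regions and in 2.60% of the 300 bases before each of 6001 start codons. With the window at the strongest point it was found at 11 promoters (4.30%) and in 2.92% of other nuclear regions. Among the 26 promoters with recurrent ChIP peaks, 4 had it in the midpoint window and 8 anywhere in the region. Of the other 230 promoters, 23 had it anywhere in the region. The whole-region counts were not matched for length. Regions with recurrent peaks ran from 497 bp (SRB2/NCP1) to 2609 bp (SOD1/ADO1), and the median length was 584 bp for divergent and 561 bp for tandem promoters. Some matches lay far from the strongest point, 455 bp after it at ADE3 and 403.5 bp after it at MLC1/RMD9. In the midpoint window the palindrome TCCGCGGA, which several Yrr1 matches contain, was found at 3 of the 256 promoters, all with recurrent ChIP peaks. It was found there at 0 of 1436 other nuclear regions and at 0.2% of start codons. With the window at the strongest point it was found at 3 promoters and 1 other nuclear region. Among the named promoters it also lay outside the midpoint window at CCT6, which had a recurrent ChIP peak, and at ERG4/PDR1, which had none. TATAAA was found at 28.1% of the promoters and 18.9% of other nuclear regions, and TTACCCG, the site of the general regulatory factor Reb1, at 6.64% and 1.74%. The shares before every start codon were 48.2% and 7.90%. A run of 10 A on either strand was found at 7.42% of the promoters, 3.20% of other nuclear regions and 18.1% of start codons. These are matches of letters, not measured binding sites.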

How the data were processed

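ChIP and input DNA of 24 libraries had been sequenced on Illumina HiSeq, per the labels' protocols. Named without roles, per the submitters' processing notes, are MACS2 2.1.0, Bowtie2 2.2.3, CASAVA 1.7 and the build sacCer3. The deposited region tables give the rise (a signal) and the background score, and the rise equals the score at the strongest point minus the background to within 1.0e-12. The deposited MACS2 lists give pileup signal, fold enrichment as a ratio and −log10 q (lowest 1.3), and the deposited CisGenome list a log2 fold change, per the file headers. The mn parameter set was used here and the m2 set as an alternative, and 17 value columns were not used. The first shares of regions overlapping either kind of peak pooled both sets.

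Regions were matched to genes with NCBI's R64 annotation, whose chromosome lengths are those of sacCer3. Regions, padded by the authors, end up to 106 bases beyond 4 chromosomes. Groups were fitted together with limma 3.58.1 in R 4.3.3 (log2(rise + 1), empirical Bayes with trend, Benjamini-Hochberg over 1350 regions). Empty entries were left out. In data simulated for YJM789 against S96 in YPD on 1350 regions, 49% of changes of 1 and 97% of changes of 2 on the log2 scale were recovered. The simulation used independent normal errors and changed a larger share of regions than the 2.07% called in the real comparison. Its rates hold for that setting only. Depth is unknown, so no counting interval is given. The members and lists were chosen with earlier results of these data known. Named promoters are those called in a comparison (up to 8 in each direction), those with a recurrent ChIP peak (the 6 with the most libraries in full), those of drug resistance genes, and the 5 divergent and 5 tandem ones with the highest mean rise. Replicate numbers do not pair the libraries by the labels. Alternatives tried were another pseudocount, a minimum rise, equal library medians, empty values as 0, the m2 set, fits of the compared groups alone, a replicate block, other promoter lengths and positions, other peak rules, and leaving out each library. Divergent and tandem classes were compared with exact permutation tests.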

Additional observations from a re-analysis of the deposited data

Results flagged for a closer look

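At 9 promoters the response to 4NQO differed between alleles by the test of that difference (limma, adjusted p below 0.05). YJM789 exceeded S96 at SNG1/YPP1 by 1.48 and at TPS1/MEO1 by 1.60 on the log2 scale. S96-I775E exceeded S96 at YDR010C/SNQ2 by 0.49, at APS2/PTK2 by 1.40, at YJR112W-A by 1.62, at GCV2/MRPS17 by 1.74, at CHD1 by 1.89, at PRE7 by 1.90 and at GAT1 by 2.23. Both comparisons share the S96 libraries. For SNG1/YPP1 the difference passed with each library left out, and for 7 of the others at least 1 omission ended the call. PRE7 passed in the omissions that could be tested, but neither PRE7 nor GAT1 had enough values to be tested without S96 replicate 2 or 3 in YPD. With library medians set equal, PRE7 and CHD1 still passed. Groups of 3 libraries were not screened for outlying libraries.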

How the results depend on the processing

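Of 43 named calls, all 43 passed with a pseudocount of 10 and with a mean rise of at least 10, 19 with library medians set equal, 26 with empty values as 0, 15 of 31 with the m2 parameter set, 20 in fits of the compared groups alone and 32 with the replicate block. With each library left out in turn 8 passed throughout, 5 could not be tested without at least 1 library, and 0 changed sign where tested. Under every alternative 3 passed, CHD1 and SNG1 for S96-I775E against S96 in YPD and SNG1 for S96-I775E against YJM789 in 4NQO. With empty values as 0, PRE7 turned to 0.74 (S96-I775E against S96 in YPD), 0.86 (4NQO against YPD with S96) and −0.085 (response, S96-I775E minus S96), and HOS2/IME4 to 0.48 (4NQO against YPD with YJM789). In those fits a missing value counts as no rise.

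Counts of called promoters moved as follows, and the cause was not tested. For YJM789 against S96 in YPD they were 15 with empty values as 0, 1 with m2 and 0 to 2 with a library left out. For YJM789 against S96 in 4NQO they were 0 with equal medians, 5 with empty values as 0, 6 with m2, 1 in the compared groups alone and 1 to 5 with a library left out. For S96-I775E against S96 in YPD they were 6 with equal medians, 27 with empty values as 0, 4 with m2 and 4 to 7 with a library left out. For S96-I775E against S96 in 4NQO they were 0 with empty values as 0, 1 with m2, 1 in the compared groups and 0 to 2 with a library left out. For S96-I775E against YJM789 they were 7, 0, 2 and 0 to 1 in YPD under the same 4 settings, and in 4NQO 2 with m2, 1 in the compared groups and 1 to 5. For 4NQO against YPD with YJM789 they were 4 with equal medians, 5 with m2, 3 in the compared groups and 2 to 7. With S96 they were 0 with equal medians, 26 with empty values as 0, 6 with m2, 1 in the compared groups, 0 with the replicate block and 0 to 2. With S96-I775E they were 0 with empty values as 0, 1 with m2 and 0 to 2. Differences of responses numbered 0 with equal medians, 13 with empty values as 0, 5 with m2 and 1 to 4 for YJM789 minus S96. For S96-I775E minus S96 they numbered 2, 14, 3 (m2), 3 (compared groups), 3 (replicate block) and 1 to 5.

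Divergent minus tandem became 0.0016 with positions set by the strongest point, −0.28 at 250 bp and 0.0231 with m2 for S96-I775E in 4NQO, −0.068 at 250 bp for S96-I775E in YPD, −0.22 at 250 bp, 0.0553 with empty values as 0 and −0.0245 with m2 for YJM789 in 4NQO, −0.0881 at 250 bp for S96 in 4NQO and 0.21 with empty values as 0 for S96 in YPD. With a library left out it lay at 0.07 to 0.10, 0.06 to 0.20, 0.09 to 0.12, −0.02 to 0.08, −0.0033 to 0.08 and 0.03 to 0.11, for S96-I775E, YJM789 and S96 with 4NQO before YPD. In the same order, promoters with a ChIP peak in at least 1 library numbered 8, 12, 38, 4, 8 and 9, and at a fold of at least 2 they numbered 2, 1, 4, 1, 2 and 2. A peak in 3 of 3 libraries was found at 3 (S96-I775E in YPD), 4 (YJM789 in 4NQO) and 3 (S96 in 4NQO). With a library left out the peak counts were 4, 3 to 4, 4 to 24, 2 to 3, 3 to 4 and 4 to 5. Without S96-I775E replicate 3 in YPD or S96 replicate 3 in 4NQO they were 3.

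Same-numbered libraries deviated together with correlations between −0.066 and 0.07, so the numbers were not taken as pairs. Depth is unknown, so no limit from counting can be given.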

Other observations

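Among the 256 promoters, reverse peaks stood in the most libraries, 9 each, at GYP8/STE2 and YKL063C, with mean reverse folds of 2.05 and 1.78. GPA1, which encodes a G protein alpha subunit, had a reverse peak in 7 libraries at a mean reverse fold of 1.85, none of them with S96 in YPD. RRT15 and IXR1 had reverse peaks in 6 libraries each, at mean reverse folds of 2.25 and 2.23. IXR1, a gene for a DNA-binding protein of the hypoxic response, also had ChIP peaks in 2 libraries of YJM789 in 4NQO. These promoters were chosen after their values were seen, and no test was made of them.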
